A study of Mus musculus with 32 samples.

Results

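Regulator of G protein signalling (RGS) genes were followed in cultured mouse cortical neurons exposed to extracellular oligoribonucleotides. The 10 genes Rgs2, Rgs4, Rgs5, Rgs6, Rgs7, Rgs8, Rgs10, Rgs14, Rgs16, and Rgs17 were chosen by name from the 49671 genes of the deposited count table, and each of the 10 had enough reads to be tested at both time points. The question was whether Rgs4, a gene that the study itself listed from these same libraries, changed alone or together with its relatives. Since the study chose Rgs4 on these samples, its direction here is not independent evidence.

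RGS proteins accelerate GTP hydrolysis by the alpha subunits of heterotrimeric G proteins and so shorten the signal of a receptor after its ligand is gone. Rgs2, Rgs4, Rgs5, Rgs8, and Rgs16 encode small proteins of the R4 subfamily, of which RGS2 prefers Gq while RGS4 acts on both Gi/o and Gq. Rgs6 and Rgs7 belong to the R7 subfamily, whose proteins are stabilised by the atypical beta subunit encoded by Gnb5 and anchored at the membrane by the product of Rgs7bp. Rgs10 and Rgs14 are R12 genes, with RGS10 known from neurons and microglia and RGS14 from the hippocampal area CA2, and Rgs17 is an RZ gene whose protein also acts on Gz.

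Cortical neurons came from the forebrains of C57BL/6 wild-type embryos at embryonic day 17 to 18. They were left untreated or were exposed at 10 µg/mL to synthetic miR-92a-1-5p, to synthetic miR-124-5p, or to Mut.oligo, a mutated let-7b sequence serving as the control for sequence specificity. The oligoribonucleotides were 5′-phosphorylated, with phosphorothioate bonds, so that every treated group shared the chemistry of the backbone. Libraries were made at 6 h and 5 d, 4 for each of the 4 conditions and 32 in all, with 24514090 to 73626029 counted reads per library. The cultures were not sorted, and the summed level of 11 neuron markers, at 5449 to 6417 CPM (counts scaled to the library total after TMM adjustment) at 6 h and 4418 to 6738 CPM at 5 d, exceeded that of 6 astrocyte markers, at 188 to 514 CPM and 913 to 1786 CPM, respectively. In such bulk RNA, fewer cells of a type and less RNA per cell cannot be told apart. The labels also name an experiment batch for each library, written here as a letter, and no batch held libraries of both time points. Without a covariate, the p-values measure the spread between the 4 libraries of a group, estimated jointly over all groups of the fit. With the batch as a covariate, they measure the spread that is left after differences between batches are removed.

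The oligoribonucleotides were added as extracellular ligands, but miR-92a-1-5p can also be read as a sequence with potential target sites, and it is shown for that reason. The mature miRNA, on chromosome 14 of GRCm38 (RefSeq, plus strand, chr14:115044437-115044459), has its seed, bases 2 to 8, in capitals.
miR-92a-1-5p: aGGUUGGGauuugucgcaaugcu
The 7 bases complementary to this seed, CCCAACC, were found in the 3′ UTR of 1984 of 21037 genes (9.43%) and in 2 of the 10 RGS genes. These were Rgs8 and Rgs6, whose longest 3′ UTRs have 7416 and 4085 bp, against a median of 960 bp over these genes. A longer 3′ UTR has more places for a match, so the shares are not directly comparable. The longest annotated 3′ UTR of Rgs4, with 2204 bp, held neither these 7 bases nor the shorter CCAACC, which occurred in 24.4% of genes and, among the members, in Rgs2, Rgs6, Rgs8, and Rgs17. The sites of Rgs8 and Rgs6 are printed with the complement of the seed in capitals, on the plus strand of GRCm38 and in the 3′ UTRs of the GENCODE M21 annotation, because these are the members that hold the 7 bases. A match is a description of letters and not a shown site of action.
Rgs8, chr1:153697476-153697505: cctacataggcCCCAACCacagtagcctta
Rgs6, chr12:83157965-83157994: ctcctgaccgcCCCAACCccaggcccaggg
Rgs6, chr12:83158958-83158987: agaattcccttCCCAACCttattctgaaga
Rgs6, chr12:83158977-83159006: tattctgaagaCCCAACCaaagcaccttgt

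Of the 10 genes, 6 lie on chromosome 1. Rgs8 (chr1:153653025-153700323, plus strand) and Rgs16 (chr1:153740349-153745468, plus strand) are separated by 40025 bp, and Rgs5 (chr1:169655501-169695813, plus strand) and Rgs4 (chr1:169741477-169747642, minus strand) by 45663 bp. Rgs2 (chr1:143999338-144004161) and Rgs7 (chr1:175059087-175492500) are on the minus strand of the same chromosome.

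Per kilobase of exon, Rgs4 was the most abundant member at both time points. Over the 16 libraries of 6 h, its mean level was 43.2 CPM per kilobase (RPKM), with a range from 22.6 to 65.0. Rgs2 followed with 20.2 RPKM (15.8 to 26.3), and the ranges of these neighbours overlapped. Rgs7 and Rgs10 came next with 9.37 and 9.24 RPKM and did not differ beyond their ranges. Rgs6, Rgs8, Rgs17, and Rgs16 lay between 5.64 and 4.94 RPKM with overlapping ranges. Rgs5 had 0.809 RPKM (0.348 to 1.40) and Rgs14 0.133 RPKM (0.0957 to 0.203), so that both were minor transcripts at 6 h.

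**Figure D1:**
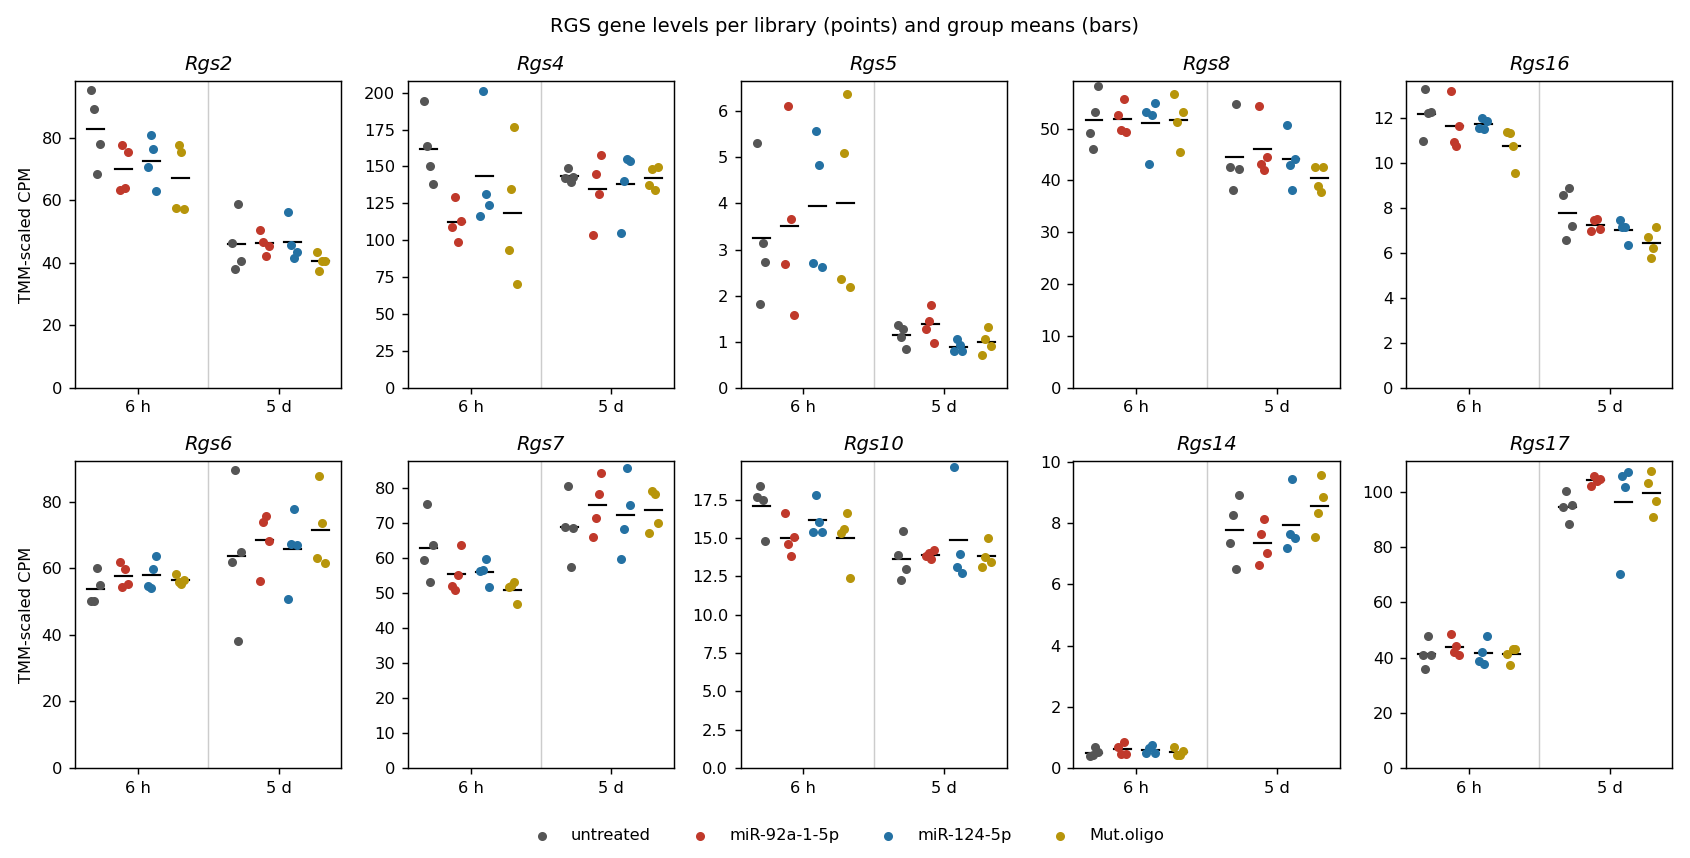
Level of each of the 10 RGS genes in CPM in every library, with a panel per gene and a column for each of the 8 groups. Points are the 4 libraries and bars the group means. Rgs4 after miR-92a-1-5p for 6 h lies at 98.5 to 129 CPM, below the untreated libraries at 138 to 194 CPM, whereas Rgs14 and Rgs17 differ mainly between 6 h and 5 d.

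After 6 h of miR-92a-1-5p, Rgs4 was the member with the lowest level relative to untreated neurons. Rgs4 measured 194, 164, 150.5, and 138 CPM in the 4 untreated libraries and 109, 129, 98.5, and 113 CPM in the 4 miR-92a-1-5p libraries, or 162 ± 24.1 and 112 ± 12.7 CPM (SD, n = 4). All 4 exposed libraries were lower than every untreated library, a separation that 1.81% of the 18755 tested genes showed in this direction. The log2 fold change was -0.52 (SE 0.22, 95% confidence interval -0.99 to -0.06), with an adjusted p of 0.999 in the quasi-likelihood test of edgeR, adjusted by Benjamini-Hochberg, without a covariate. In that fit, and in DESeq2 without a covariate, 0 of all genes (0%) were called, which needed a log2 fold change beyond 0.5 at an adjusted p under 0.05. An unadjusted p under 0.05 was found in edgeR for 891 genes (4.75%), of which Rgs4 was the only RGS member.

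The 4 untreated and the 4 miR-92a-1-5p libraries of 6 h came from the same 4 experiment batches, A, B, D, and E, which allows a comparison within each batch. Rgs4 was lower in the exposed library of every batch, by log2 differences of -0.47 in A, -0.53 in B, -0.59 in D, and -0.49 in E. With the batch as a covariate, the log2 fold change of Rgs4 was again -0.52, with an SE of 0.0791 and an edgeR adjusted p of 0.00639. Rgs4 was then the only 1 of 10 members among the genes called, beside 39 of all 18755 genes (0.208%). In DESeq2 with the batch, Rgs4 had a log2 fold change of -0.52 and an adjusted p of 0.00262. Rgs4 kept an edgeR adjusted p under 0.05 in 5 of the 8 batch fits that left out a library. The adjusted p rose to 0.0717 without untreated replicate 2, 0.0522 without untreated replicate 3, and 0.0637 without miR-92a-1-5p replicate 4, and without miR-92a-1-5p replicate 2 the log2 fold change was -0.44, short of the required 0.5.

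**Figure D2:**
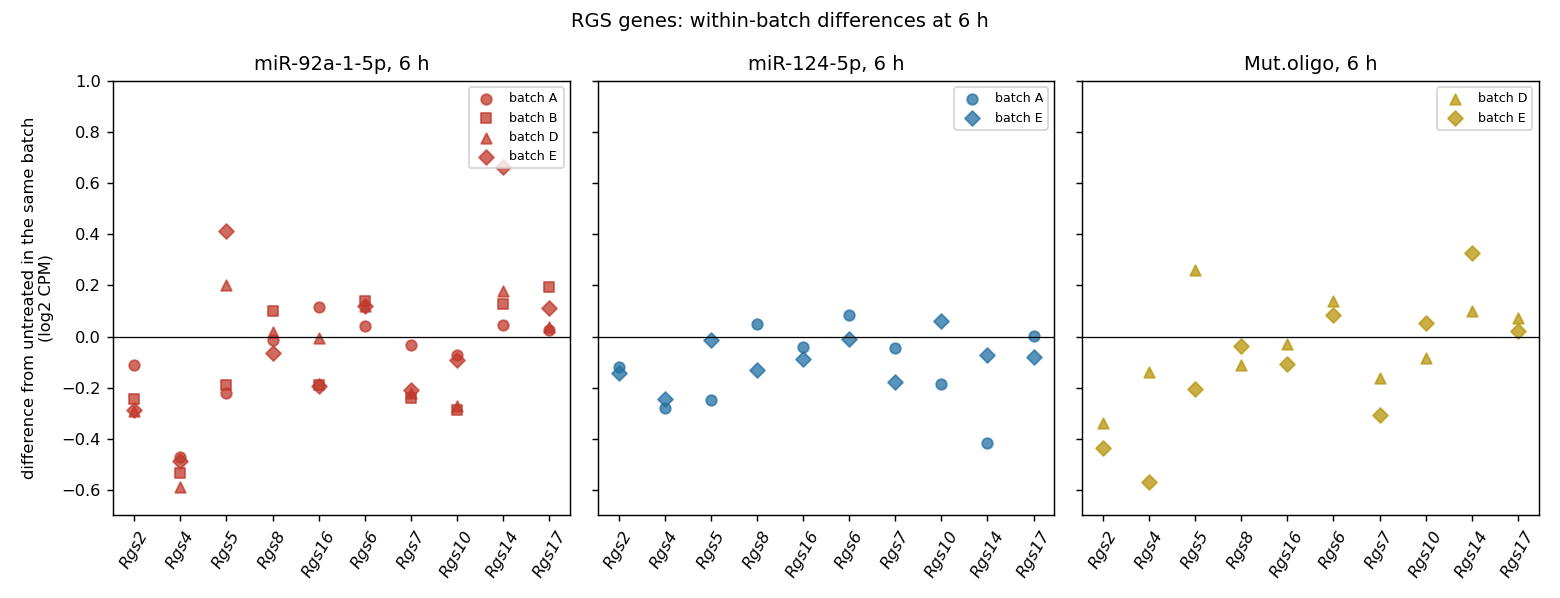
Log2 difference between the exposed and the untreated library of the same experiment batch at 6 h for each RGS gene, with a point per shared batch and the y axis in log2 units. For miR-92a-1-5p, Rgs4 lies between -0.59 and -0.47 and is the lowest member in each of the 4 batches.

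Among the other R4 genes, Rgs2, the regulator with a preference for Gq, showed a smaller difference in the same direction. It measured 95.3, 89.4, 68.3, and 78.1 CPM in untreated neurons and 63.2, 77.9, 64.0, and 75.5 CPM after miR-92a-1-5p, and the groups overlapped. Within batches Rgs2 differed by -0.11 to -0.29, each time downwards, and the batch fit gave a log2 fold change of -0.23 (SE 0.038) with an edgeR adjusted p of 0.0091. Rgs2 thus passed the adjusted p but not the minimum fold change, and it passed the adjusted p in 3 of the 8 fits that left out a library (0.00336 to 0.0981). Rgs8 and Rgs16 had log2 fold changes of 0.01 and -0.07 in the batch fit, and Rgs5 had 0.09 with an interval from -0.19 to 0.37. Rgs8, which carries a 7-base seed match, therefore had an interval of -0.08 to 0.11 around no difference, and Rgs5, the neighbour of Rgs4, was too variable to be narrowed down.

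In the R7 subfamily, Rgs7 was slightly lower and Rgs6 slightly higher. Rgs7 measured 59.5, 75.4, 53.3, and 63.9 CPM in untreated neurons and 52.1, 51.0, 55.3, and 63.9 CPM after miR-92a-1-5p. The groups overlapped, but the exposed library was lower in all 4 batches, by -0.03 to -0.24. The batch fit gave Rgs7 a log2 fold change of -0.18 (SE 0.0403) and an edgeR adjusted p of 0.0465, which remained under 0.05 in 1 of the 8 fits without a library (0.0143 to 0.327), while DESeq2 with the batch gave 0.0523. For Rgs6, with 3 seed matches, the exposed library was higher in all 4 batches, and the log2 fold change was 0.11 (SE 0.0351, edgeR adjusted p = 0.179).

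The other members did not pass a threshold in either fit. Rgs10 was lower in all 4 batches, with a log2 fold change of -0.18 (SE 0.0669, edgeR adjusted p = 0.232 with the batch). Rgs14 and Rgs17 were higher in all 4 batches, at 0.29 (SE 0.241) and 0.09 (SE 0.0489). With no minimum fold change, a criterion added after the values were seen, 3 of the 10 members (Rgs2, Rgs4, and Rgs7) were lower in the batch fit, beside 0.549% of all tested genes, and 0 members were higher, beside 0.507%. By direction alone, Rgs2, Rgs4, Rgs7, and Rgs10 were lower in every batch, beside 12.1% of all genes, and Rgs6, Rgs14, and Rgs17 were higher in every batch, beside 12.3%. The interval of Rgs4 in the batch fit, -0.69 to -0.35, lay below the lower bounds of the other 9 members, of which -0.33 for Rgs10 and -0.32 for Rgs2 were nearest, although a difference between members was not tested.

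Libraries with less Rgs4 at 6 h tended to have a higher summed level of glial and vascular markers and a lower one of neuron markers. Over the 16 libraries of 6 h, which share batches and handling, the log2 CPM of Rgs4 and the summed level of 9 mural cell markers had a Pearson r of -0.80. The r was -0.74 with astrocyte, -0.52 with microglia, -0.42 with endothelial, and 0.62 with neuron markers. The mural sum is mostly Notch3, Pdgfrb, and Vtn, with r of -0.79, -0.80, and -0.57, and 5 of the 9 mural markers had a negative r. Rgs5, known as a pericyte gene, had an r of -0.31 with the mural sum. With Rgs4 its r was 0.70, but over deviations from the mean of each treatment group. That value is therefore not comparable with the r of the markers. The r of Rgs5 was 0.81 with neuron, -0.79 with astrocyte, -0.55 with endothelial, and -0.09 with microglia markers. At 5 d its r with the mural sum was 0.04. Over the 16 libraries of 5 d, the r of Rgs4 was -0.40 with the mural sum and -0.40 with astrocyte markers. It was -0.60 with microglia, 0.11 with endothelial, and 0.64 with neuron markers. At 6 h the mural sum was 26.9 to 39.2 CPM in untreated neurons and 30.5 to 44.7 CPM in those exposed to miR-92a-1-5p. It was 29.6 to 40.7 CPM for miR-124-5p and 32.9 to 59.3 CPM for Mut.oligo. Of the mural markers, 8 of 9 were tested and 0 differed after miR-92a-1-5p in either fit, and the pericyte marker Higd1b was at 0 in most libraries. The part of these cells in the Rgs4 values was not tested.

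After 6 h of miR-124-5p, 0 members and 0 of all genes (0%) were called in edgeR, with or without the batch, and 0 members were called in DESeq2. The study's listing of Rgs4 as downregulated by miR-124-5p was thus not reproduced in these fits. Rgs4 measured 117, 201, 131, and 124.1 CPM, so that 1 library exceeded all untreated ones and the groups overlapped. The log2 fold change was -0.16 (95% confidence interval -0.63 to 0.30, edgeR adjusted p = 1), and -0.14 with the batch (adjusted p = 0.893). Only batches A and E were shared with untreated neurons, and in these Rgs4 differed by -0.28 and -0.24. Rgs2 had the smallest p of the members in the batch fit, at a log2 fold change of -0.16 (SE 0.0471, edgeR adjusted p = 0.798), and Rgs7 had -0.11 (SE 0.0503, adjusted p = 0.844). At an unadjusted p under 0.05, the fit without a covariate held 0 members beside 852 genes (4.54%).

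After 6 h of Mut.oligo, Rgs4, Rgs2, and Rgs7 again had the lowest values of the family, and 0 of them were called. Without the batch edgeR called 0 of all genes (0%) and DESeq2 called 5 higher and 5 lower, and with the batch edgeR called 4 genes (0.0213%), in each case with 0 members. At an unadjusted p under 0.05, edgeR without the batch held 2 members, Rgs2 and Rgs7, beside 1780 genes (9.49%). Rgs4 spread widely, at 93.0, 134.5, 177, and 70.0 CPM, and the group overlapped with untreated neurons. Its log2 fold change was -0.43 (SE 0.221, edgeR adjusted p = 0.572), and -0.42 with the batch (SE 0.0969, adjusted p = 0.158). Of the shared batches, D gave -0.14 and E gave -0.57. Without the batch, the log2 fold change of Rgs4 was -0.68 when Mut.oligo replicate 3, of batch D, was left out and -0.24 when replicate 4 was (edgeR adjusted p = 0.261 and 0.896). With the batch it was -0.68 without replicate 3 (edgeR adjusted p = 3.36e-05), the only 1 of 8 such fits in which Rgs4 was called, and -0.42 without replicate 4 (adjusted p = 0.154).

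Rgs2 measured 57.7, 77.6, 75.5, and 57.4 CPM after Mut.oligo, and with the batch its log2 fold change was -0.32 (SE 0.0476, edgeR adjusted p = 0.0267). This passed the adjusted p but not the minimum fold change, as 0.0587% of genes did in this direction, and Rgs2 held it in 3 of 8 fits without a library (0.00411 to 0.37). Rgs7 measured 51.7, 52.0, 53.1, and 47.0 CPM, below all untreated libraries, as in 2.8% of tested genes. The log2 fold change of Rgs7 was -0.28 (edgeR adjusted p = 0.386), and -0.21 with the batch (adjusted p = 0.181). The other 7 members had log2 fold changes between -0.08 and 0.12 in the batch fit, with Rgs6 the highest.

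**Figure D3:**
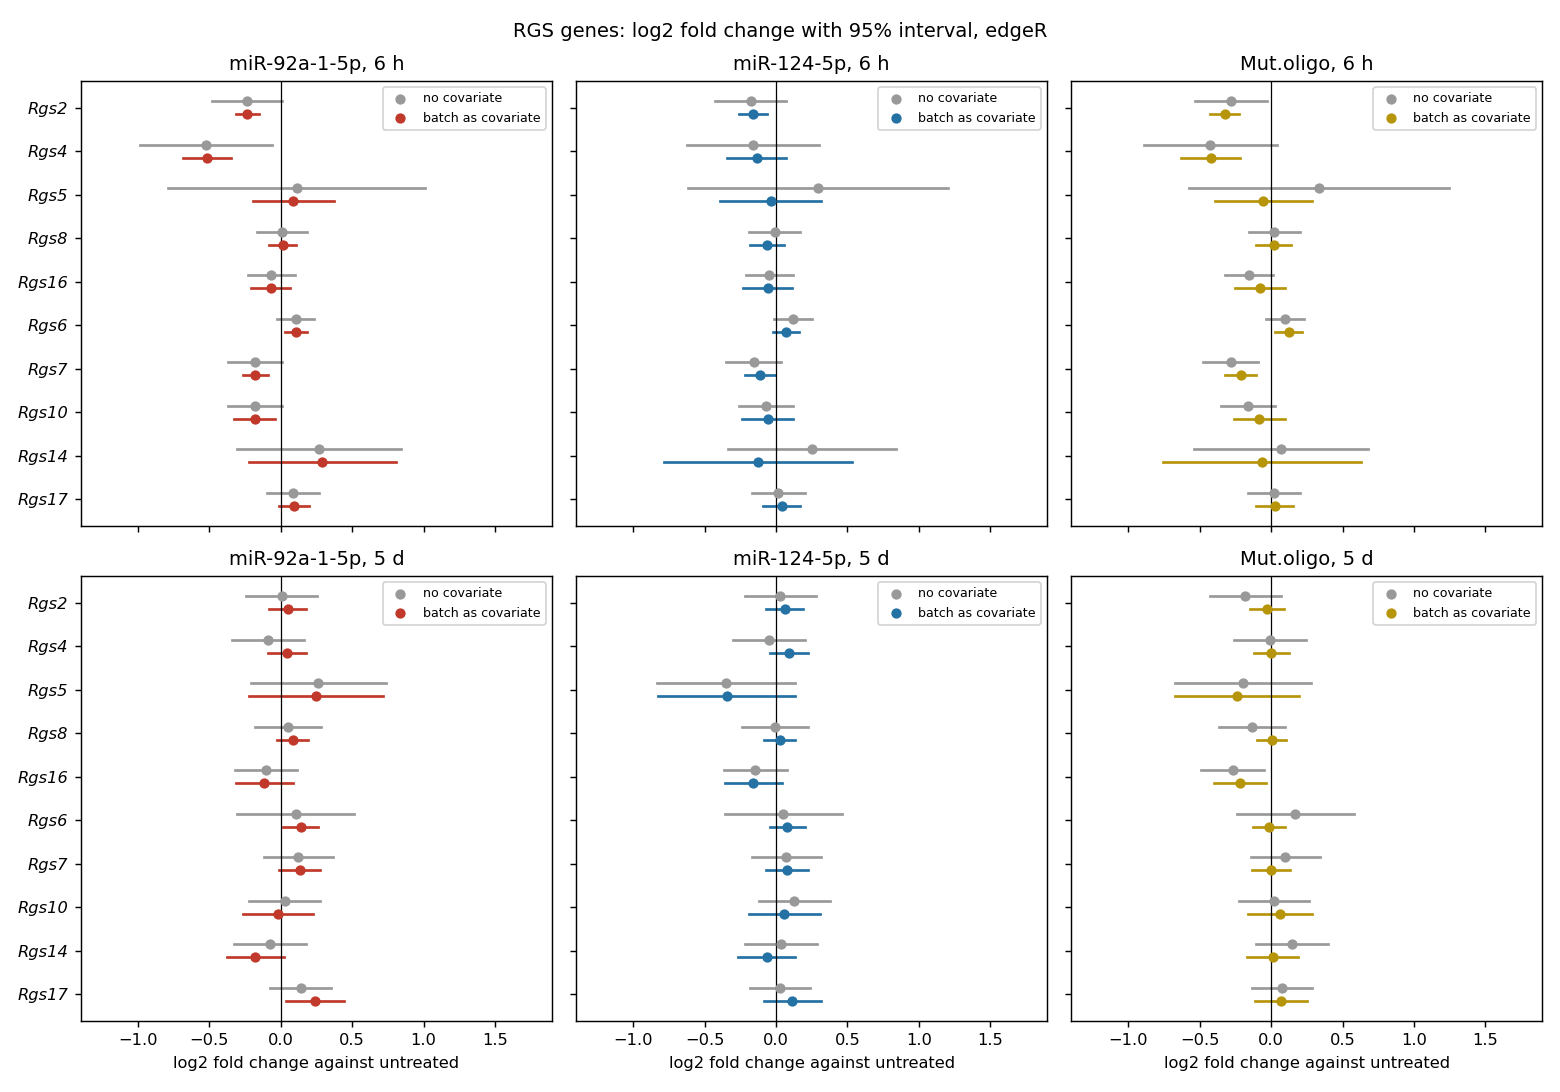
Log2 fold change of each RGS gene against untreated neurons with its 95% confidence interval, for the 3 oligoribonucleotides at 6 h and 5 d, from the fit without a covariate and from the fit with the experiment batch. At 6 h, Rgs4 lies at -0.52 after miR-92a-1-5p in both fits, and the batch narrows its interval from -0.99 to -0.06 down to -0.69 to -0.35.

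The comparisons with untreated neurons share the untreated libraries, so the oligoribonucleotides, which differ in base sequence at the same dose and time, were also compared with each other. At 6 h no member was called in any of the 3 pairs, with or without the batch. Nor did edgeR call any other gene in these pairs (0 of 18755, 0%). Adjusted p-values over all genes were used throughout. Rgs4 was lower after miR-92a-1-5p than after miR-124-5p by a log2 fold change of -0.36 (95% confidence interval -0.83 to 0.10), and with the batch by -0.38 (-0.59 to -0.18, edgeR adjusted p = 0.946). Between miR-92a-1-5p and Mut.oligo, the log2 difference of Rgs4 was -0.10 (95% confidence interval -0.56 to 0.37) and -0.10 with the batch (-0.30 to 0.11). Between miR-124-5p and Mut.oligo it was 0.26 (95% confidence interval -0.20 to 0.73) and 0.29 with the batch (0.08 to 0.50, edgeR adjusted p = 0.996). These intervals do not show that the oligoribonucleotides act alike on Rgs4.

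Few genes around the RGS proteins passed at 6 h. After miR-92a-1-5p, 0 of 5 partners of the R7 proteins, 0 of 13 alpha subunits, 0 of 16 effectors, and 0 of 8 tested other RGS genes had an adjusted p under 0.05 in the batch fit. Among 15 beta and gamma subunits, Gnb4, which encodes a beta subunit, was lower at -0.26 (edgeR adjusted p = 0.00494), and among 28 receptors coupled to Gi/o or Gq, Grm2, a metabotropic glutamate receptor, was lower at -0.50 (adjusted p = 0.00893). The R7 anchor Rgs7bp had a log2 fold change of -0.21 (edgeR adjusted p = 0.087 with the batch). Its libraries lay below all untreated ones (55.1 to 61.3 against 66.3 to 68.5 CPM), as in 1.81% of tested genes. This separation was also found after Mut.oligo (53.6 to 64.7 CPM, as in 2.8% of genes) and miR-124-5p (56.9 to 65.6 CPM, share of genes not counted). These comparisons use the same untreated libraries, so they are not independent observations. After Mut.oligo and miR-124-5p, 0 genes of these lists had an adjusted p under 0.05 in the batch fit.

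Rgs4 is counted among genes whose transcription follows neuronal activity, so a list of 20 other activity-regulated genes was set beside it. After miR-92a-1-5p their median log2 fold change with the batch was -0.44, against 0.01 over all genes and -0.03 over the 10 RGS members. Of the 20 genes, 11 were lower at an edgeR adjusted p under 0.05 and 0 were higher, and 7 were called, namely Fos, Npas4, Bdnf, Vgf, Adcyap1, Scg2, and Pcsk1. Over all tested genes, 0.549% were lower, 0.507% were higher, and 0.208% were called in either direction. The neurotrophin gene Bdnf had the lowest value at -0.98 (SE 0.198, edgeR adjusted p = 0.0294), followed by the transcription factor gene Npas4 at -0.84 and the immediate early gene Fos at -0.73. The study listed several of these genes on the same libraries, so their direction is not independent evidence either. After Mut.oligo the list's median was -0.43 with 3 genes lower at an adjusted p under 0.05, beside 0.0587% of all genes. For miR-124-5p the median was -0.18 with 0 such genes. Whether Rgs4 moved through neuronal activity was not tested.

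**Figure D4:**
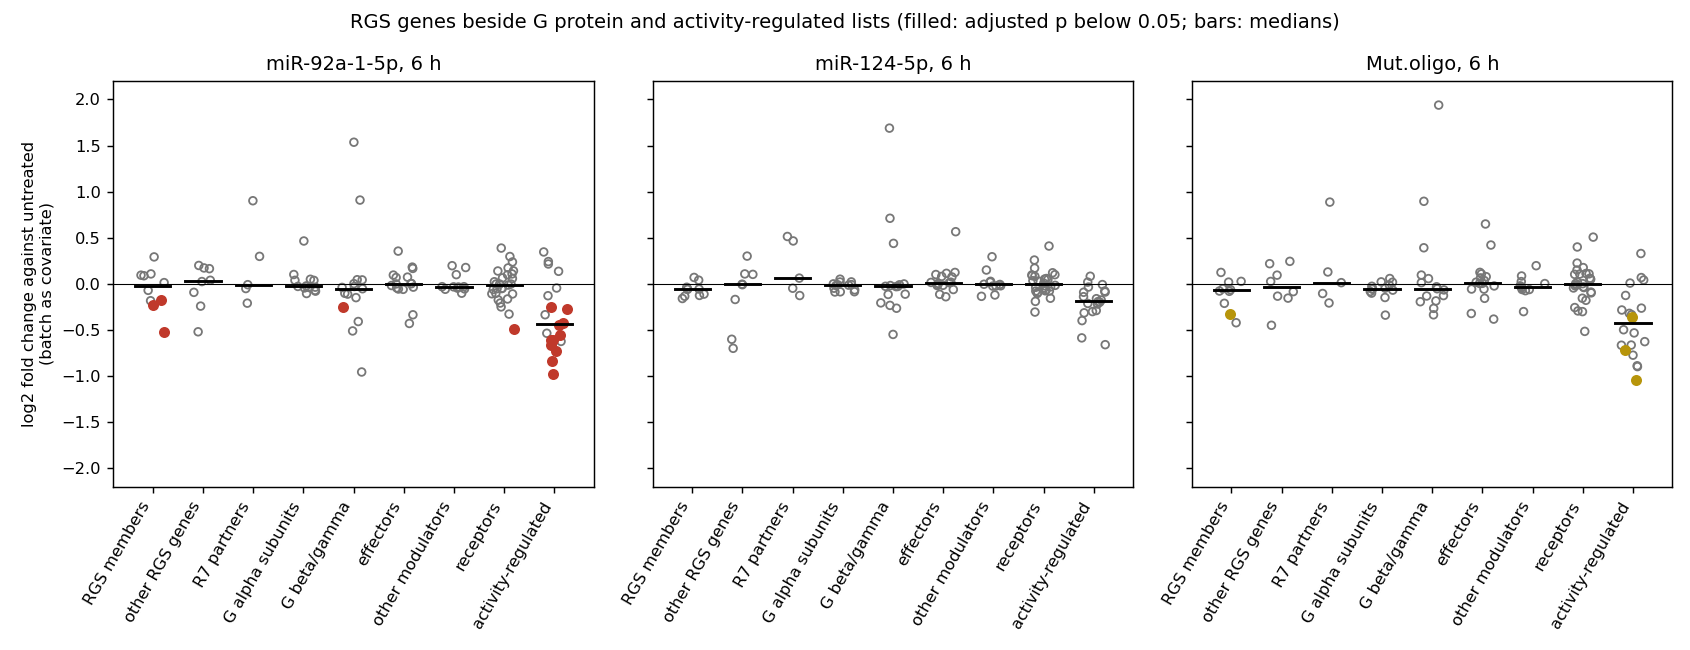
Log2 fold change at 6 h with the experiment batch as a covariate for the RGS members, the lists of G protein genes, and the activity-regulated genes, after each oligoribonucleotide, with a point per gene, filled where the edgeR adjusted p was under 0.05. After miR-92a-1-5p, 3 of 10 RGS members and 11 of 20 activity-regulated genes are filled, all of them lower.

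Promoters of the members were searched for the cAMP response element, a motif that recruits CREB in active neurons. The windows, from 250 bases before to 50 bases after the start of transcription in RefSeq (GRCm38), existed for 9 of the 10 members, without Rgs14. The full element, TGACGTCA, was in none of them and in 1.79% of all 32851 windows. The short form TGACG, read on either strand, was in 20.8% of all windows and in those of 3 members, Rgs2, Rgs4, and Rgs8. The matches of Rgs4 and Rgs2, the members lowest after miR-92a-1-5p, are printed in the direction of the gene, on the minus strand, with the motif or its complement CGTCA in capitals, beside that of Rgs8 on the plus strand, whose difference after miR-92a-1-5p was 0.01. A match is no evidence of binding.
Rgs4, chr1:169747863-169747889: aatgcaaaactTGACGcgtaggtagaa
Rgs4, chr1:169747768-169747794: catccctgatgCGTCAgttgtttcttc
Rgs2, chr1:144004319-144004345: tgcggcgcctaCGTCAacagcgccctc
Rgs2, chr1:144004201-144004227: tggggcgtggcTGACGcctccaggtcc
Rgs8, chr1:153652980-153653006: tggattcaagcCGTCAgcagagagcca

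After 5 d, 0 members were called for any oligoribonucleotide in edgeR or DESeq2, with or without the batch. The genes called by edgeR without a covariate were 1 of 19333 for miR-92a-1-5p (0.00517%), 0 for miR-124-5p (0%), and 0 for Mut.oligo (0%), and with the batch 68 (0.352%), 5 (0.0259%), and 9 (0.0466%). At an unadjusted p under 0.05, the fit without a covariate held 0, 0, and 1 members, beside 3.63%, 2.6%, and 2.79% of genes. Rgs4 measured 142, 149, 140, and 142.5 CPM in untreated neurons and 103.5, 145, 131, and 158 CPM after miR-92a-1-5p. The groups overlapped, and the log2 fold change was -0.09 (95% confidence interval -0.34 to 0.16), or 0.04 with the batch (-0.09 to 0.18). The library at 103.5 CPM came from batch P, which held no untreated library. So did the lowest miR-124-5p library, at 105 CPM. Both miRNAs shared only batches Q and U with untreated neurons. In these, Rgs4 was at 145 and 158 CPM after miR-92a-1-5p and at 142 and 142.5 CPM in untreated neurons. After miR-124-5p Rgs4 had a log2 fold change of 0.09 and after Mut.oligo of 0.00 with the batch, both with an edgeR adjusted p of 1. The value furthest from untreated neurons without the batch was that of Rgs5 after miR-124-5p, at -0.35 (SE 0.229, edgeR adjusted p = 1), from mean levels of only 1.15 and 0.893 CPM. Rgs16 after Mut.oligo, at -0.27 (edgeR adjusted p = 0.999), was the 1 member with an unadjusted p under 0.05. Rgs17 was the only member whose groups separated after miR-92a-1-5p, at 102 to 106 CPM against 88.6 to 100.5 CPM, as in 1.23% of genes in this direction, with a log2 fold change of 0.14 without and 0.24 with the batch (edgeR adjusted p = 0.386). Between the oligoribonucleotides at 5 d, 0 members were called in any of the 3 pairs, beside at most 2 genes (0.0103%) with the batch, and the log2 differences of Rgs4 were between -0.09 and -0.04 without the batch.

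The difference between the time points was tested for each oligoribonucleotide, with 20425 genes. The effect of miR-92a-1-5p on Rgs4 was 0.57 higher on the log2 scale at 5 d than at 6 h with the batch (SE 0.116, 95% confidence interval 0.33 to 0.81, edgeR adjusted p = 0.0486), and Rgs4 was the 1 member among 28 genes called (0.137%). Without the batch the difference was 0.43 (adjusted p = 1), and 0 genes (0%) were called by edgeR. An unadjusted p under 0.05 was then found for 0 members, beside 800 of the 20425 genes. Rgs2 and Rgs7 had differences of 0.29 and 0.31 with the batch, both with an edgeR adjusted p of 0.109. For miR-124-5p and for Mut.oligo, 0 members were called in this test, beside 1 (0.0049%) and 2 genes (0.00979%) with the batch.

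More members were called over time in culture than for any oligoribonucleotide. Between untreated neurons of 5 d and of 6 h, 5 of 10 members were called, beside 33.5% of the 20425 tested genes, with 2 higher (19.1% of all genes) and 3 lower (14.3%). Rgs14, a scaffold that also binds Ras proteins, rose from 0.505 ± 0.126 to 7.76 ± 1.06 CPM (SD, n = 4), a log2 fold change of 3.93 (SE 0.189, edgeR adjusted p = 9.41e-17). Rgs17, the RZ gene, rose from 41.0, 35.9, 47.8, and 40.9 CPM to 94.6, 100.5, 88.6, and 95.2 CPM, a log2 fold change of 1.19 (SE 0.0994, edgeR adjusted p = 2.75e-11). For these genes every library of 5 d was above every library of 6 h, as in 23.6% of all genes.

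The 3 members that fell were R4 genes. Rgs2 fell by 0.85 on the log2 scale (SE 0.125, edgeR adjusted p = 1.3e-06), from 68.3 to 95.3 CPM to 37.96 to 59.0 CPM. Rgs16, which is induced by many stimuli, fell by 0.64 (SE 0.0927, edgeR adjusted p = 8.74e-07), from 10.95 to 13.3 CPM to 6.54 to 8.86 CPM. Rgs5, best known from pericytes, fell by 1.49 (SE 0.369, edgeR adjusted p = 0.00104), from 1.81 to 5.31 CPM to 0.834 to 1.37 CPM. All 3 were lower without overlap between the groups, as were 24.3% of all genes. These 5 calls held in each of the 8 fits without a library and in DESeq2.

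The remaining members were not called. Rgs10 had a log2 fold change of -0.32 (edgeR adjusted p = 0.012), short of the minimum fold change, and Rgs8 had -0.22 (adjusted p = 0.0726). Rgs4 differed by -0.17 (95% confidence interval -0.56 to 0.21, edgeR adjusted p = 0.454), and the R7 genes Rgs6 and Rgs7 by 0.24 and 0.13 with overlapping groups. Per kilobase, the order of the members over all 16 libraries at 5 d was Rgs4 with 45.1 RPKM (33.4 to 50.9), then Rgs2 with 12.4, Rgs7 with 12.1, and Rgs17 with 11.9 RPKM in overlapping ranges, and Rgs14 with 1.87 RPKM was above Rgs5 with 0.243 RPKM.

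**Figure D5:**
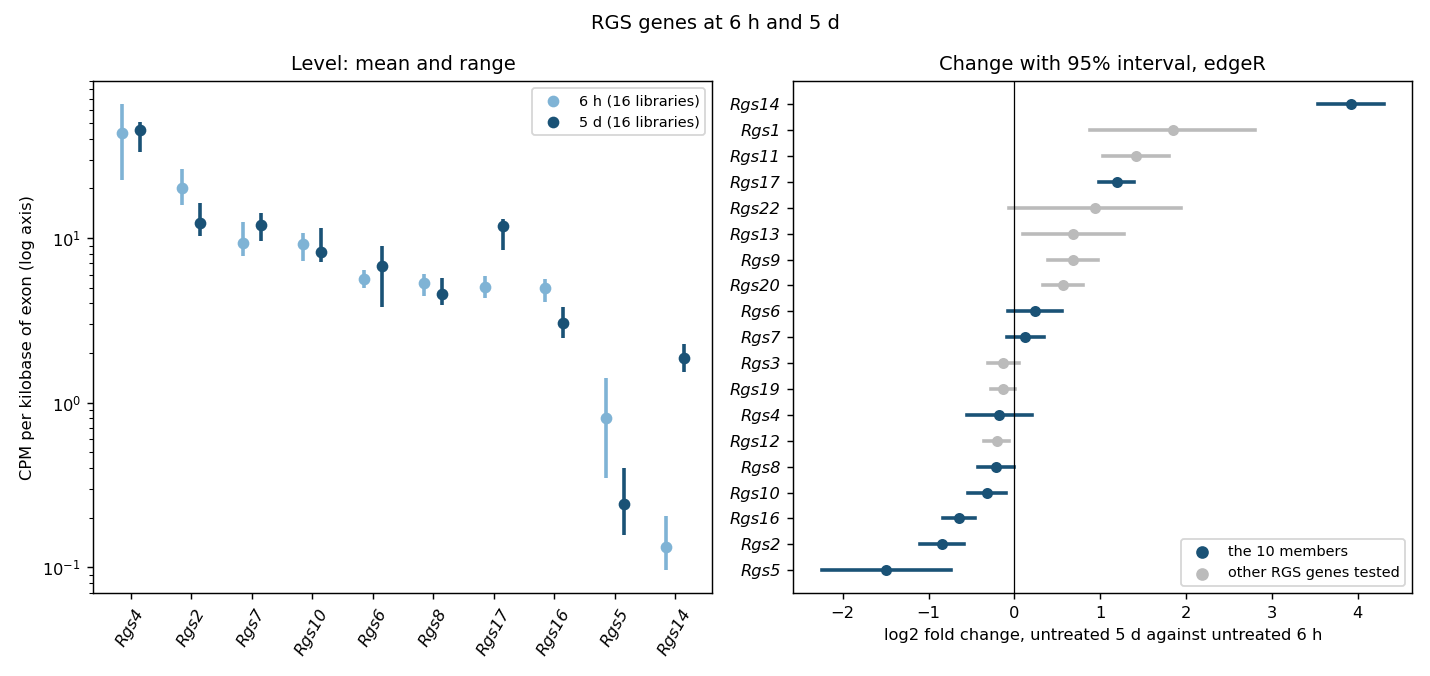
Levels per kilobase (RPKM) of the 10 RGS genes in the libraries of 6 h and 5 d, and log2 fold changes between untreated neurons of 5 d and 6 h for the members and the other tested RGS genes. Rgs14 is highest at 3.93 and Rgs5 lowest among the members at -1.49, while Rgs4 lies at -0.17.

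Of the other RGS genes, 9 of 11 were tested over time, and 5 were called higher at 5 d and 0 lower, beside 19.1% and 14.3% of all genes. The R7 gene Rgs11 rose by a log2 fold change of 1.42 and Rgs9 by 0.68, Rgs1 rose by 1.85, Rgs13 by 0.69, and the RZ gene Rgs20 by 0.57. Among the R7 partners, 3 of 5 were higher, with Rgs7bp at 0.60, the orphan receptor Gpr158 at 0.88, and Gpr179 at 2.49, and Gnb5 had 0.22 (edgeR adjusted p = 5.61e-05), below the minimum fold change. Effectors were higher in 8 of 16 genes and lower in 0, and receptors were higher in 14 of 28 genes and lower in 1, Grm2 at -1.20. Without the genes that share more than 10% of their exon bases with a gene on the opposite strand (Adcy3, Kcnj3, Adora1, and Htr1b), 7 of 14 effectors and 13 of 26 receptors were higher, and the counts of other RGS genes and R7 partners were unaltered. By the same rule the member Rgs16, at 10.1%, drops out, which leaves 2 of 4 R4 members called lower instead of 3 of 5.

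Other values moved with time as well. No batch spanned both time points, so that time and batch cannot be told apart. Astrocyte markers summed to 243 to 467 CPM in untreated neurons at 6 h and to 962 to 1786 CPM at 5 d, with 5 of 6 called higher. Without Aldh1l1, which shares 11% of its exon bases with a gene on the opposite strand, 4 of 5 astrocyte markers were higher. Mural markers are set beside Rgs5, a pericyte gene, whose r with their sum was -0.31 at 6 h and 0.04 at 5 d. They summed to 26.9 to 39.2 and 31.1 to 45.1 CPM, with 3 of 8 tested lower (Kcnj8, Vtn, and Abcc9). Higd1b was at 0 in the untreated libraries of 5 d. The mural markers called higher were Pdgfrb, with means of 5.94 and 9.13 CPM, and Tagln, with 0.193 and 2.50 CPM, of which Tagln shares 67.9% of its exon bases with a gene on the opposite strand and is uncertain. Microglia markers, which bear on Rgs10, summed to 5.53 to 11.6 and 8.28 to 15.1 CPM. The part of other cell types in the member values was not tested.

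The change over time also depended on the opposite strand. Protein-coding genes with no exon bases shared with a gene on the other strand had a median log2 fold change of -0.01, while 145 genes sharing above 50% had 1.32, and 63.4% of them were called higher. Rgs2, Rgs4, Rgs5, Rgs7, Rgs10, Rgs14, and Rgs17 shared 0% of their exon bases in this way, Rgs8 0.726%, Rgs6 0.768%, and Rgs16 10.1%. The alpha subunit gene Gnas, with 22% shared, went from 49.9 ± 2.41 to 1247 ± 77.8 CPM and is uncertain for that reason. Comparisons within a time point do not cross this difference.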

How the data were processed

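Libraries were prepared by the authors with a stranded mRNA kit and sequenced with 75 bp reads. Per the labels and methods, the authors mapped reads with STAR 2.7.3a to GRCm38, counted reads per gene with featureCounts (strand setting 2), and deposited raw counts without normalization. Counts of genes that overlap another gene on the opposite strand differed by time point, although the methods name this setting for all libraries, and the cause was not tested. All 32 columns were mapped to groups by their labels, and 0 columns were left over.

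Here, genes reaching 5 counts in 3 or more libraries were fitted per time point with edgeR 4.0.16 in R 4.3.3 (TMM, quasi-likelihood test, 4 groups, no covariate), and a call required a log2 fold change beyond 0.5 and an adjusted p (Benjamini-Hochberg) under 0.05. The comparisons across time used all 32 libraries. CPM are counts scaled to the library total after TMM adjustment, and within-batch differences use log2 CPM with a prior count of 2. Gene names came from GENCODE M21, which matched 49412 of 49671 identifiers. At a depth of 24514090 to 73626029 counts per library, counts were lowest for Rgs5 (35 to 276) and, at 6 h, for Rgs14 (12 to 36). Rgs5 also differed between libraries of a group, at 3.25 ± 1.48 CPM (SD) in untreated neurons of 6 h. None of the 48 pairs of replicates agreed within sampling noise. The members and all lists were chosen with earlier results of these data known. Named genes were the 10 members, the detected other RGS genes, and, of each other list, those called in either fit or up to 3 with the smallest p, plus the 5 genes most like Rgs4. Alternatives were the batch covariate, the replicate number, DESeq2 1.42.0, RLE size factors, other filters, a fit of only the groups compared, no minimum fold change, and the omission of each library. The script was tested on simulated data. Same-numbered libraries had a median correlation of deviations of -0.156 at 6 h, so the numbers were not treated as pairs.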

Additional observations from a re-analysis of the deposited data

Results flagged for a closer look

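Rgs17 in the miR-124-5p group at 5 d held a library far from the others. Replicate 1 measured 70.2 CPM, whereas the other 3 libraries measured 102 to 107 CPM, and the gap to the nearest was 0.854 of the group's range. In the same library, of batch P, Rgs4 was lowest of its group at 105 CPM and Rgs10 highest at 19.6 CPM. In miR-92a-1-5p replicate 1, also of batch P, Rgs4 was likewise lowest of its group at 103.5 CPM. Rgs17 and Rgs10 were there at 102 and 13.8 CPM. Of the 80 combinations of member and group tested, Rgs17 after miR-124-5p for 5 d was the only 1 that stood out. Chance alone flags about 1 in 20, so 1 flag among 80 is not more than chance gives. The miR-124-5p library also had the lowest neuron marker sum of all 32, at 4418 CPM, and the highest microglia marker sum, at 16.99 CPM, against 9.46 to 11.8 CPM in the other 3 of its group and at most 15.1 CPM elsewhere. Their part in the value was not tested.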

How the results depend on the processing

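The count of members called after miR-92a-1-5p at 6 h was 0 without a covariate, 1 with the experiment batch in edgeR, 1 in DESeq2 with the batch, and 3 with the batch and no minimum fold change, an alternative added after seeing the data. Rgs4 itself had -0.52 in both batch fits, with adjusted p-values of 0.00639 and 0.00262. For Mut.oligo at 6 h the count was 1 with the batch and no minimum fold change, and for the difference of the miR-92a-1-5p effect between time points it was 1 in each of these 3 fits. Rgs10 over time passed with no minimum fold change at -0.32. Leaving out a library moved Rgs4 after miR-92a-1-5p between -0.60 and -0.42 without and between -0.56 and -0.44 with the batch (-0.50 without untreated replicate 4), and moved the batch counts of miR-92a-1-5p and Mut.oligo at 6 h between 0 and 1. With library totals in place of TMM, 7 within-batch differences moved by more than the spread. Of the 70 member fold changes, 13 changed sign with the batch (edgeR or DESeq2) or the replicate block, and 32 in at least 1 fit without a library. These were all uncalled, at most 0.336 in size as reported, with no interval that excluded 0. With the batch in edgeR, Rgs14 after miR-124-5p at 6 h went from 0.25 to -0.13, Rgs5 at 6 h from 0.29 to -0.04 after miR-124-5p and from 0.34 to -0.05 after Mut.oligo, and Rgs4 at 5 d from -0.09 to 0.04 after miR-92a-1-5p and from -0.05 to 0.09 after miR-124-5p. The replicate block gave Rgs4 after miR-92a-1-5p -0.52 (edgeR adjusted p = 1) and changed no call, and same-numbered libraries correlated above 0.1 in 7 of 24 pairs at 6 h and 14 of 24 at 5 d, against 14 of 14 and 15 of 17 pairs of the same batch. The batch covariate gave no value for the comparison of time points. Counts were lowest for Rgs5 and, at 6 h, for Rgs14.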

Other observations

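The genes whose levels varied most like Rgs4 were Ubqln1 (r = 0.897), Ndfip2 (0.882), Id2 (0.881), Gab2 (0.875), and Nus1 (0.874). These are Pearson correlations of deviations from the mean of each treatment and time group over 32 libraries, which share batches, among 17905 genes. Of the other members, Rgs5 came closest with 0.553 and Rgs8 was furthest with -0.647. The members related differently at the time points, since Rgs2 followed Rgs4 with r = 0.774 over the 16 libraries of 6 h and with -0.564 over the 16 libraries of 5 d. Rgs10 changed likewise from 0.759 to -0.589, whereas Rgs8 was opposed to Rgs4 at both, with -0.772 and -0.613.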
